A study of Mus musculus with 3 samples.

Results

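The smooth muscle contractile genes described here are 10 genes taken by name, *Actg2*, *Tpm2*, *Cald1*, *Lmod1*, *Synpo2*, *Flnc*, *Fhl1*, *Myl9*, *Des* and *Hspb6*, of the 9781 gene rows kept of a single-cell RNA-seq table. All 10 had a row. The libraries were made from mouse tissue labelled normal, 1 library each from male urogenital sinus at E18.5 (E18.5_UGS), the embryonic tissue that gives rise to the prostate, and from prostate at postnatal days 14 and 35 (P14_Prostate and P35_Prostate). The labels give neither genotype nor strain, and the sources used here do not say how many animals were pooled. The methods state that mice of the study had a mixed C57BL/6 and 129S1/SvImJ background and describe R26 mTmG/+:Osr1 Cre/+ mice, in which a Cre made where *Osr1* is expressed switches a membrane reporter. All cells shared 1 table, in which barcodes end in 1, 2 or 3, and neither the labels nor the table tie an ending to an age. The endings are called barcode sets 1, 2 and 3, their values are set side by side, and no age was compared. With 1 library per group there were no replicates and no tests, and every interval (95%) covers counting error only.

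Smooth muscle contracts when myosin pulls on actin filaments that are anchored at dense bodies and at the membrane. Calcium acts mainly through phosphorylation of the myosin regulatory light chain, while tropomyosin and caldesmon on the thin filament tune how myosin reaches actin. Desmin filaments and actin cross-linkers hold the contractile units together. In the prostate, smooth muscle sheaths the ducts and arises from urogenital mesenchyme, and related mural cells, the pericytes, line small vessels.

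To show what lies upstream of the members, promoter windows from RefSeq (GRCm38.p6, 250 bases before to 50 after a transcript start) were searched on both strands. Windows were found by symbol for 9 of the 10 members, 5 with 1 window and 4 with 2, and none for *Actg2*. The motifs were the CArG box (a pair of C, a run of 6 A or T, a pair of G), through which serum response factor acts on many muscle genes, the MCAT element CATTCC and the TATA element TATAAA. No match overlapped a match of another motif. A CArG box lay in 2 of 13 member windows and in 1.63% of all 32851 windows. CATTCC lay in 4 of 13 member windows, those of 3 genes since the windows of *Flnc* overlap and share 1 site, and in 14.7% of all, and TATAAA in 4 of 13 and in 13.6%. The sequences shown are those with the CArG boxes of *Myl9* (position -161 from the start) and *Fhl1* (position -102), the CATTCC of *Lmod1* (position -130, opposite strand) and the TATAAA of *Hspb6* (position -29). Each is the plus strand, 5′ to 3′, of the 250 bases before a start, with matches in capitals, and that of *Fhl1* also holds TATAAA on the opposite strand. Those of *Fhl1* and *Hspb6* lie wholly inside the gene spans (56731209 to 56793346 and 30552535 to 30555443), before a transcript start within the gene. The other window of *Hspb6*, at the 5′ end of its span, held no TATAAA.
Myl9 chr2:156775214-156775463: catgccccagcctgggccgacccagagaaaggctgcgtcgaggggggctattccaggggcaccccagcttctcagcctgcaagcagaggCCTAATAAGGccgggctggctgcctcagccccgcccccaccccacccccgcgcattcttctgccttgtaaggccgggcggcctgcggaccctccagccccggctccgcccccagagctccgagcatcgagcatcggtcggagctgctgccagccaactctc
Fhl1 chrX:56779433-56779682: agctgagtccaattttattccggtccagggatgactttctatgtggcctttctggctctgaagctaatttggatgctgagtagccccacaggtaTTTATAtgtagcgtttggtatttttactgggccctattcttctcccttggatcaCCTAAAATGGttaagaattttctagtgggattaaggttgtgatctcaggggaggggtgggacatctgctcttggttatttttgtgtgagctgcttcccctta
Lmod1 chr1:135324563-135324812: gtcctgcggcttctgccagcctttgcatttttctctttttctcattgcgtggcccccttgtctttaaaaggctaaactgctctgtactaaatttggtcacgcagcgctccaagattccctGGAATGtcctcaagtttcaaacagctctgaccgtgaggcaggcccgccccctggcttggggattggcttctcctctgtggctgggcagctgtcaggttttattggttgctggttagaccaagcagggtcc
Hspb6 chr7:30553051-30553300: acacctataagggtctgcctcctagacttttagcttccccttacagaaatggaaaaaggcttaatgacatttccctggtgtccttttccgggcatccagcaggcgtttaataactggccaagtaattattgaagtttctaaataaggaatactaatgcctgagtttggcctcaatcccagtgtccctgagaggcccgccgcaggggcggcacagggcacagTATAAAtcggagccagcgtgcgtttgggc
The windows of the other members with a window held no CArG box, which says only that this pattern is not within these bases.

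Cells were clustered with the members and other contractile genes left out, and clusters were named from separate markers. The muscle-like cluster carried 7 of 13 smooth muscle markers, 6 of 12 fibroblast markers and 1 of 10 striated muscle markers. The pericyte-like cluster carried more of the smooth muscle list, 9 of 13, beside 7 of 8 pericyte markers and 5 of 12 fibroblast markers. The summed rate of the smooth muscle list was 676, 2422 and 2964 in muscle-like cells of sets 1, 2 and 3 and 1192, 1259.9 and 2437 in pericyte-like cells, in UMIs per 1000000. The leading genes of the muscle-like cluster, other than those left out, included *Pcp4l1* of the smooth muscle list but also *Tnnc2* and *Myog* of the striated list. The label smooth muscle was thus not borne out by the markers of this cluster alone. *Acta2*, *Myh11*, *Tagln* and *Cnn1*, which define smooth muscle, were not analysed here. The class held 262 of 766 cells in set 1 (a share of 34.2% with exact bounds 30.8 and 37.7), 1512 of 5350 in set 2 (28.3%, 27.1 to 29.5) and 1991 of 8360 in set 3 (23.8%, 22.9 to 24.7). These bounds cover counting error only, and the way the class was drawn moved the share far more. The share of set 1 was 5.35% at a clustering resolution of 1.0, 0.783% without integration and 10.1% with cells classed one by one by their own markers, and with at least 1000 genes per cell that of set 3 was 1.73%. Its cells had a median of 14356, 1584 and 1601 unique molecular identifiers (UMIs, 1 for each captured mRNA molecule), so set 1 was read far more deeply. The compared classes were fibroblast-like (171, 1785 and 2596 cells), pericyte-like (14, 30 and 126 cells, led by *Rgs5*) and basal-like epithelial cells (60, 1130 and 1926). Sets 1 and 2 shared 1 cell barcode and sets 2 and 3 shared 13, and leaving these cells out changed none of the counts of members given here.

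In sets 2 and 3 all 10 members had their highest rate in muscle-like cells among the 9 named classes. In each of these sets the interval stood clear of the next class for 8 members, all but *Lmod1* and *Synpo2*. In set 1 the highest class was pericyte-like for 5 members (*Actg2*, *Tpm2*, *Myl9*, *Cald1* and *Fhl1*), muscle-like for 3 (*Lmod1*, *Synpo2* and *Hspb6*) and fibroblast-like for 2 (*Des* and *Flnc*). The interval stood clear of the next class for 8 members there, all but *Lmod1* and *Hspb6*, so that *Synpo2* alone was clearly highest in muscle-like cells of set 1. The share of all genes highest in each class was not counted, so these counts describe the members only. A rate is given as CPM, the UMIs found for a gene in every 1000000 UMIs of the cells of a class. Rates were compared between classes for 1 gene at a time or summed over the members, and no gene was ranked against another by its rate. The 10 members together made up 2489.5 CPM of muscle-like cells in set 1, 29571 in set 2 and 26891 in set 3. These cells held 47.4%, 66.4% and 74.9% of the member UMIs of their sets, against 22.2%, 18.1% and 13.2% of all UMIs.

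**Figure D1:**
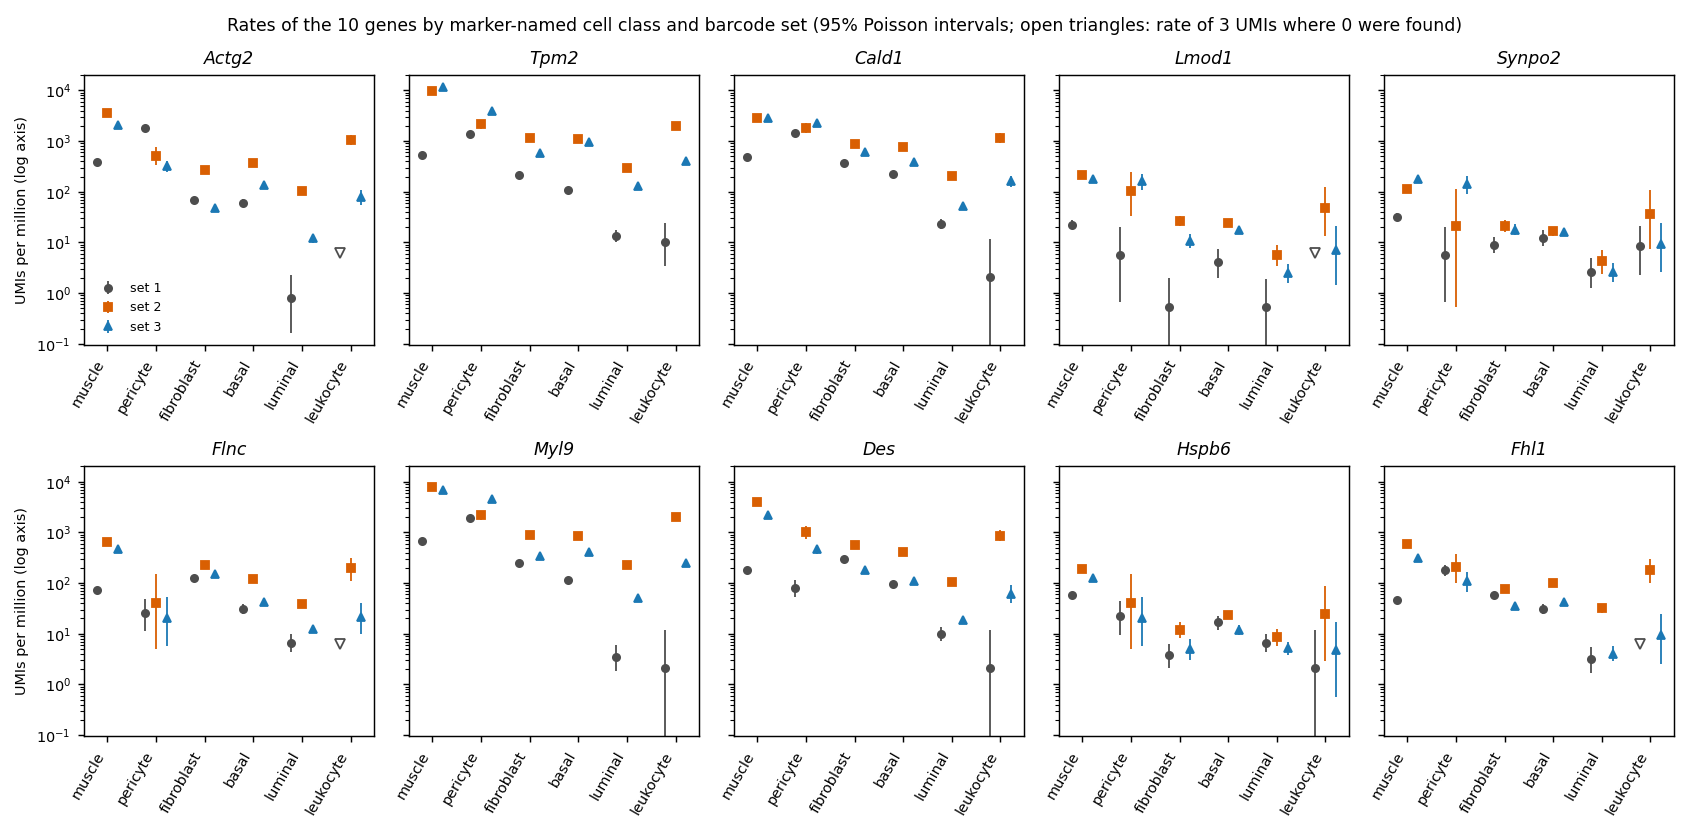
Rates of the 10 members (UMIs per 1000000, log axis) by cell class, with 1 symbol per barcode set, 95% Poisson intervals as bars and open triangles at the rate of 3 UMIs where 0 were found. In sets 2 and 3 the muscle-like point is highest for all 10 members, and in set 1 the pericyte-like point is highest for 5.

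The first comparison asked how far the members set muscle apart within the stroma, against fibroblast-like cells. At least 2-fold higher rates in muscle-like cells were found for 6 of 10 members in set 1, beside 15.1% of the 6528 genes with at least 20 UMIs over both classes. In set 2 the count was 10 of 10, beside 9.36% of 5618 genes, and in set 3 it was 10 of 10, beside 12.5% of 5845 genes. The median log2 ratio of the members was 1.37, 2.96 and 3.81 in sets 1, 2 and 3, and that of all genes 0.25, -0.12 and -0.07. *Cald1*, *Des*, *Fhl1* and *Flnc* were the members outside the count of set 1. The count of set 1 rested on how the class was drawn. At a clustering resolution of 1.0 only 41 cells of set 1 were named muscle-like. Of the 262 cells, 183 lay in a cluster named fibroblast-like and 37 in one without a name. The count was then 1 of 10, with *Des* at 1.75 and *Flnc* at 0.64 above 0. *Synpo2* at -0.48 (-2.13 to 0.78) and *Hspb6* at -1.01 (-2.90 to 0.38) then had bounds on both sides of 0.

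Among the thin filament members, *Actg2* encodes the smooth muscle gamma actin (chromosome 6, 83512909 to 83536251, GRCm38.p6). Its rate in muscle-like cells was 380.5 CPM (363 to 399, 1736 UMIs) in set 1, 3541 (3473 to 3611, 10222 UMIs) in set 2 and 2037 (1990.5 to 2084, 7360 UMIs) in set 3. In fibroblast-like cells it was 67.5, 267 and 47.7 CPM. The log2 ratios of muscle-like over fibroblast-like cells, each with its bounds, were 2.49, 2.30 to 2.69 in set 1, 3.73, 3.62 to 3.84 in set 2 and 5.42, 5.20 to 5.64 in set 3. Muscle-like cells were thus higher in every set, and a UMI of *Actg2* was found in 25.2%, 88.9% and 74.7% of them, the lowest share in the deepest set.

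*Tpm2* encodes beta tropomyosin, which lies along the actin filament (chromosome 4, 43513726 to 43523583). Its rate was 530.2 CPM (509 to 552) in muscle-like and 214 in fibroblast-like cells of set 1, 9573 (9460.3 to 9686) and 1140.1 in set 2, and 11776 (11664 to 11888) and 585 in set 3. The log2 ratios with their bounds were 1.31, 1.19 to 1.43 in set 1, 3.07, 3.02 to 3.12 in set 2 and 4.33, 4.27 to 4.39 in set 3. *Tpm2* was found in 99.7% and 97.7% of muscle-like cells of sets 2 and 3. *Cald1*, for the actin-binding regulator caldesmon (chromosome 6, 34598495 to 34775469), separated the classes less. The muscle-like rates were 481, 2802 and 2822 CPM and the fibroblast-like ones 378, 872 and 612, with log2 ratios of 0.35, 0.25 to 0.45 in set 1, 1.68, 1.62 to 1.75 in set 2 and 2.21, 2.14 to 2.27 in set 3. *Lmod1*, for leiomodin, which nucleates actin filaments (chromosome 1, 135324813 to 135368065), stood at 22.6, 216 and 175 CPM in muscle-like cells. It was near the floor in fibroblast-like cells of set 1, with 2 UMIs (0.542 CPM), and stood at 26.3 and 10.7 CPM in sets 2 and 3. The ratios were 5.38, 3.49 to 8.44 in set 1, 3.04, 2.69 to 3.41 in set 2 and 4.04, 3.58 to 4.54 in set 3.

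Among the anchoring members, *Synpo2* encodes myopodin, which bundles actin at Z-discs and dense bodies (chromosome 3, 123076519 to 123236168). Its rates were 32.2, 114 and 177 CPM in muscle-like and 8.95, 21.3 and 17.8 in fibroblast-like cells, with log2 ratios of 1.85, 2.42 and 3.31. *Flnc*, for the muscle filamin, which cross-links actin (chromosome 6, 29433153 to 29461889), was lower in muscle-like cells of set 1, at 71.9 CPM (64.3 to 80.1) against 125 (114 to 137), and higher in sets 2 and 3, at 656 against 228 and 469.6 against 149.7. The log2 ratios were -0.80, -1.01 to -0.59 in set 1, 1.52, 1.39 to 1.65 in set 2 and 1.65, 1.51 to 1.79 in set 3, the smallest of the 10 members in each set. At a clustering resolution of 1.0 the ratio of *Flnc* in set 1 lay on the other side of 0, at 0.64. *Fhl1*, for a LIM domain protein of muscle (chromosome X, 56731209 to 56793346), stood at 46.7, 577 and 314 CPM in muscle-like and 56.9, 77.8 and 35.4 in fibroblast-like cells, with ratios of -0.29, -0.57 to -0.0046 in set 1, 2.89 in set 2 and 3.15 in set 3.

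*Myl9*, the myosin member, encodes a regulatory light chain of smooth muscle myosin (chromosome 2, 156775408 to 156781657). It stood at 688 CPM (664 to 712), 7830.2 (7728 to 7933) and 6809 (6725 to 6895) in muscle-like cells and at 254, 899.5 and 336 in fibroblast-like cells. The ratios were 1.44, 1.33 to 1.55 in set 1, 3.12, 3.06 to 3.18 in set 2 and 4.34, 4.26 to 4.43 in set 3. *Des*, for the intermediate filament desmin (chromosome 1, 75360292 to 75368579), was lower in muscle-like cells of set 1, at 178 CPM (166 to 191) against 294 (277 to 312), and higher in sets 2 and 3, at 4069 against 569 and 2184 against 182. Its ratios were -0.72, -0.85 to -0.59 in set 1, 2.84, 2.76 to 2.92 in set 2 and 3.58, 3.47 to 3.70 in set 3, and that of set 1 was 1.75 at a clustering resolution of 1.0. *Hspb6*, for a small heat shock protein of muscle (chromosome 7, 30552535 to 30555443), was well above the fibroblast-like rate in every set, at 58.5, 193 and 128 CPM against 3.80, 12.1 and 5.06. Its ratios were 3.95, 3.997 and 4.66, and that of set 1 was -1.01 at a clustering resolution of 1.0, from 4 UMIs in muscle-like cells and with bounds on both sides of 0.

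Markers of other cells were present in the muscle-like class. The striated list summed to 166, 244 and 252 CPM there, against 5.15, 23.5 and 25.3 in fibroblast-like cells, with all 10 of its genes found in set 1, 8 in set 2 (*Ttn* and *Myog* at 0) and 9 in set 3 (*Myog* at 0). *Myog*, a factor of skeletal muscle, stood at 76.1 CPM in muscle-like cells of set 1. The fibroblast list summed to 6793, 4493 and 3328 CPM in muscle-like cells against 22298, 15276 and 17766 in fibroblast-like cells, with all 12 genes found. In pericyte-like cells this list summed to 9751.5, 6630 and 2561 CPM. The 3 erythroid markers, globin genes among them, summed to 2149, 57.9 and 8.30 CPM in muscle-like cells against 631, 30.2 and 274, and *Hbb-bt* and *Hbb-bs* were among the leading genes of the muscle-like cluster other than those left out. Their part in the member rates was not tested.

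**Figure D2:**
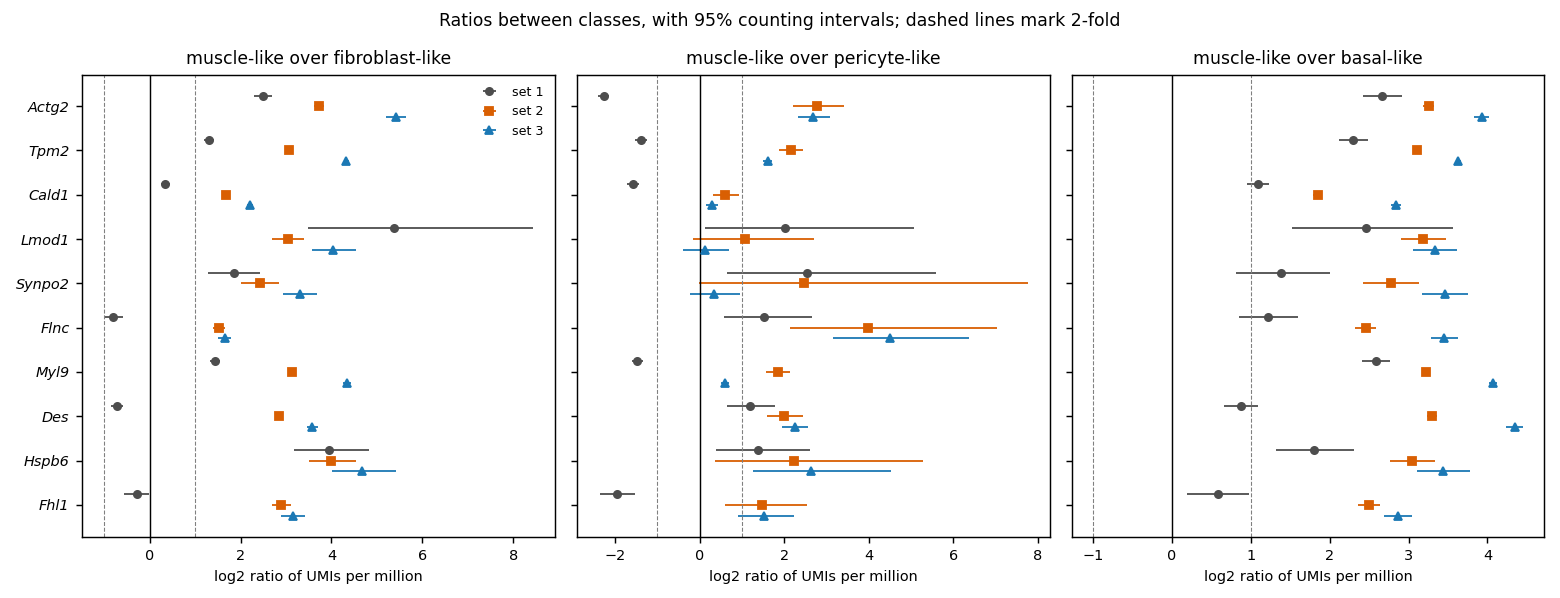
Log2 ratios of the rate in muscle-like cells over that in fibroblast-like, pericyte-like and basal-like cells for the 10 members, with 1 symbol per barcode set and 95% counting intervals. In set 1 *Des*, *Fhl1* and *Flnc* lie below 0 against fibroblast-like cells and 5 members lie below -1 against pericyte-like cells.

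The muscle-like cells of set 1 were not uniform. At a clustering resolution of 1.0 they fell mainly into finer cluster 6 (183 cells), beside finer clusters 1 (41 cells) and 4 (37 cells). In set 2 these clusters held 302, 619 and 587 muscle-like cells, and in set 3 they held 258, 1190 and 536. By the rule used to name clusters, finer cluster 6 was itself fibroblast-like (9 of 12 fibroblast and 8 of 13 smooth muscle markers), finer cluster 4 had no name (9 of 13 smooth muscle markers) and finer cluster 1 was muscle-like. Most cells called muscle-like in set 1 thus lay in a finer cluster named fibroblast-like. In finer cluster 4 of set 1 *Actg2* stood at 1524 CPM, *Tpm2* at 1754, *Myl9* at 2235 and *Hspb6* at 170.0. In finer cluster 6 of set 1 the same genes stood at 159.6, 295, 398 and 40.1 CPM, so most members were low in most muscle-like cells of set 1. Finer cluster 6 also had more of the collagen gene *Col3a1*, 2727 CPM against 1489.9, and of the proteoglycan gene *Dcn*, 2341 against 1428. *Des* had another order in set 1, with 563 CPM in finer cluster 1, 380.1 in 4 and 93.7 in 6, and so had *Flnc*, with 145, 70.5 and 65.9. Finer cluster 1 of set 1 held the myogenic factor *Myod1* at 302 CPM and the globin gene *Hbb-bs* at 24084. Finer cluster 4 of set 1 held *Myog* at 405 CPM and the cardiac actin gene *Actc1* at 1082.

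In sets 2 and 3 the finer clusters lay closer together than in set 1 for 9 members, all but *Fhl1*. In finer cluster 1 of set 1, *Lmod1*, *Synpo2* and *Hspb6* rested on 3, 5 and 4 UMIs. How often genes in general lay closer together was not counted. *Fhl1* stood at 50.4, 63.6 and 42.4 CPM in finer clusters 1, 4 and 6 of set 1, at 668, 675 and 396 in set 2 and at 268, 399 and 279 in set 3. *Actg2* stood at 3529, 4838 and 2116 CPM in finer clusters 1, 4 and 6 of set 2 and at 1378, 3269.5 and 1463 in set 3. *Tpm2* stood at 10684, 12041 and 5924 CPM in set 2 and at 8974, 17509 and 8541 in set 3. Finer cluster 4 was highest for 8 members in set 2 (not *Des* and *Synpo2*) and for all 10 in set 3. *Flnc* ranged from 572 to 707 CPM in set 2 and from 450.0 to 486 in set 3. The skeletal troponin gene *Tnnc2* stood at 288 and 479 CPM in finer cluster 4 of sets 2 and 3, while *Myog* had 0 UMIs in the finer clusters of both sets. With finer cluster 6 left out, the counts against fibroblast-like cells stayed at 6, 10 and 10 of 10, but *Des* of set 1 turned to a log2 ratio of 0.62 (0.47 to 0.78), and *Fhl1* stood at 0.09 with bounds on both sides of 0 (-0.34 to 0.50).

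**Figure D3:**
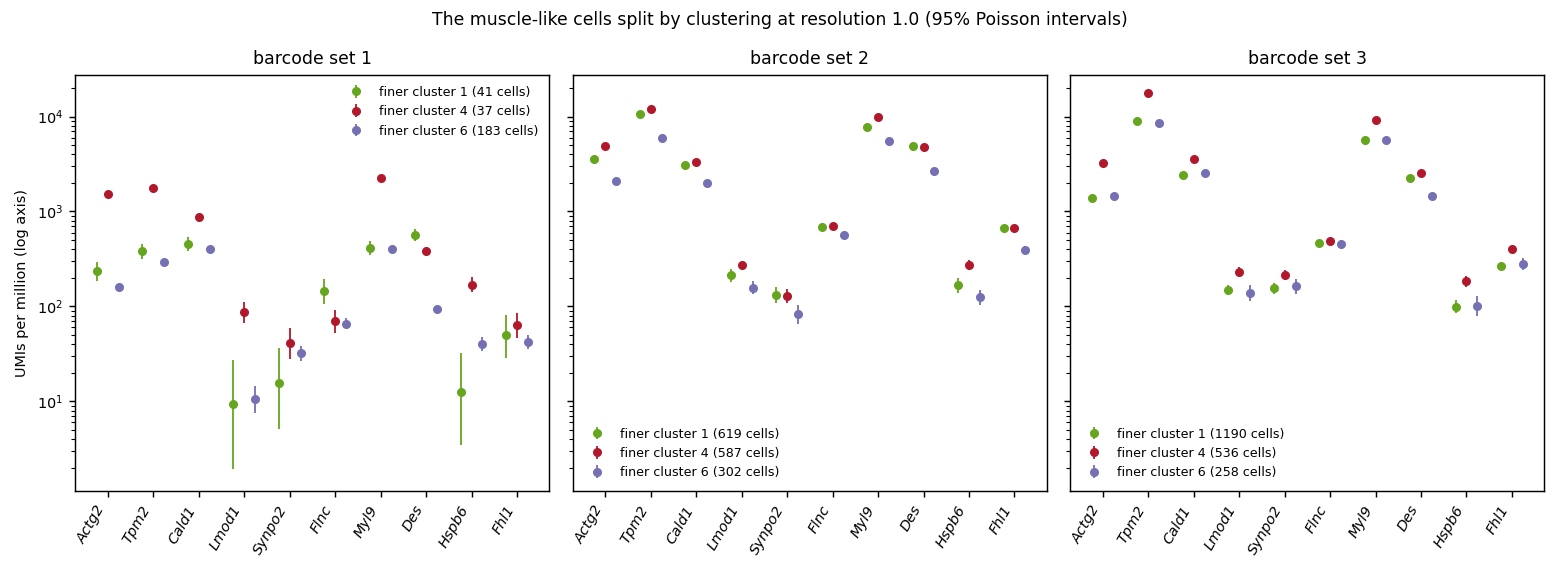
Rates of the 10 members (UMIs per 1000000, log axis) in the 3 finer clusters of muscle-like cells in each barcode set, with 95% Poisson intervals. In set 1 finer cluster 4 is highest for 8 members (*Des* and *Flnc* are highest in finer cluster 1), and in sets 2 and 3 the finer clusters lie closer together for all members but *Fhl1*.

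The second comparison set muscle-like against pericyte-like cells, the other contractile class. In set 1 the members split, with 5 of 10 at least 2-fold higher in muscle-like cells (beside 21.7% of 6018 genes) and 5 of 10 at least 2-fold lower (beside 8.94%). In set 2, 9 of 10 were higher (beside 6.62% of 4652 genes) and 0 lower (beside 41.1%). In set 3, 6 of 10 were higher (beside 12.5% of 4884 genes) and 0 lower (beside 19.8%). The pericyte-like values of set 1 come from 14 cells and those of set 2 from 30.

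The members lower in muscle-like cells of set 1 were *Actg2*, *Tpm2*, *Cald1*, *Myl9* and *Fhl1*. For 4 of these the direction rested on how the classes were drawn. With cells classed one by one, the log2 ratios in set 1 were 1.80 for *Actg2*, 1.40 for *Tpm2*, 1.07 for *Myl9* and 0.42 for *Cald1*, all with bounds above 0. In the clustered classes *Actg2* stood at 1829 CPM (1691 to 1974) in pericyte-like cells of set 1, 516 (334 to 762) in set 2 and 316 (241 to 405) in set 3, with log2 ratios of -2.26, -2.40 to -2.13 in set 1, 2.78, 2.22 to 3.41 in set 2 and 2.69, 2.33 to 3.08 in set 3. *Tpm2* stood at 1388, 2148 and 3845 CPM in pericyte-like cells, with ratios of -1.39, 2.16 and 1.61. *Myl9* stood at 1907, 2169 and 4512 CPM, with ratios of -1.47, 1.85 and 0.59, and was thus within 2-fold in set 3. *Cald1* was within 2-fold in sets 2 and 3, at 1838 and 2308 CPM in pericyte-like cells. The ratio was 0.61, 0.31 to 0.93 in set 2, and that of set 3 was 0.29, 0.15 to 0.43. *Lmod1* and *Synpo2* of set 3 had ratios whose bounds lay on both sides of 0, 0.13, -0.39 to 0.70 for *Lmod1* and 0.34, -0.22 to 0.95 for *Synpo2*. Those of set 2 were counted as higher, yet their bounds also lay on both sides of 0, 1.07, -0.16 to 2.69 for *Lmod1*, from 5 UMIs in pericyte-like cells, and 2.46, -0.02 to 7.77 for *Synpo2*, from 1.

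*Des*, *Flnc* and *Hspb6* were at least 2-fold higher in muscle-like cells in all 3 sets of the clustered classes, though with cells classed one by one *Des* and *Flnc* of set 1 were within 2-fold. *Des* had ratios of 1.19, 2.01 and 2.25 from 78.2, 1012 and 461 CPM in pericyte-like cells. *Flnc* was scarce in pericyte-like cells, with 9, 2 and 4 UMIs, and had ratios of 1.52, 0.57 to 2.66 in set 1, 3.99, 2.13 to 7.04 in set 2 and 4.50, 3.14 to 6.38 in set 3. *Hspb6* had 8, 2 and 4 UMIs there and ratios of 1.39, 2.22 and 2.63. With finer cluster 6 left out of the muscle-like class, 6 of 10 members differed at least 2-fold in set 1. The share over all genes was not counted for this redrawn class.

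The third comparison was with basal-like epithelial cells, the layer next to the muscle sheath of the ducts. At least 2-fold higher rates in muscle-like cells were found for 8 of 10 members in set 1 (beside 20% of 6516 genes), 10 of 10 in set 2 (beside 17.0% of 6035 genes) and 10 of 10 in set 3 (beside 19.7% of 6297 genes). *Des* (0.87, 0.66 to 1.09) and *Fhl1* (0.58, 0.20 to 0.98) stayed within 2-fold in set 1. *Cald1* had the smallest ratios of sets 2 and 3, 1.85, 1.79 to 1.90 in set 2 and 2.84, 2.78 to 2.90 in set 3, and *Des* the largest, 3.30, 3.23 to 3.36 and 4.34, 4.24 to 4.45. Those of *Myl9* were 2.58, 3.22 and 4.07.

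A small group held much of the member signal of basal-like cells. Finer cluster 11 made up 9 of 60 basal-like cells in set 1, 115 of 1130 in set 2 and 210 of 1926 in set 3, and held 60.4%, 29.2% and 57.5% of the member UMIs of the class. In set 3 *Actg2* stood at 739 CPM in it and 38.3 in the other basal-like cells, *Tpm2* at 3886 and 486, and *Myl9* at 2089.5 and 139.8. In set 2 these pairs were 1199.5 and 270.5, 3265 and 856, and 2668 and 620.3. The epithelial gene *Sfn* was lower in it in every set. The values were 232 against 2790 CPM in set 1, 2171 against 3907 in set 2 and 3001 against 5291 in set 3. In set 1 *Sfn* was found in 4 of its 9 cells, against 48 of 51 others. Finer cluster 11 had no name by the rule used, carried 9 of 10 basal markers and was led by *Msc*, *Myf5* and *Myod1*. High doublet scores (a sign of more than 1 cell in a droplet) fell on 1 of its 9 cells in set 1, 40 of 115 in set 2 and 156 of 210 in set 3. Among the other basal-like cells they fell on 3 of 51, 74 of 1015 and 72 of 1716. In set 1 finer cluster 11 held the myogenic factors *Myf5* at 229.6 CPM, in 6 of 9 cells, and *Myod1* at 212, in 5 of 9. The part of doublets or of myogenic cells in the member rates was not tested. Without finer cluster 11, 10 of 10 members were at least 2-fold higher in muscle-like cells in every set.

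Leukocyte-like and luminal-like cells, which are not known for *Actg2* or *Des*, also held UMIs of the members. Others of the 10 genes, such as *Cald1*, *Myl9* and *Tpm2*, are also active outside muscle. In set 1 *Actg2*, *Lmod1*, *Fhl1* and *Flnc* had 0 UMIs in 38 leukocyte-like cells, which allows up to 6.26 CPM (3 UMIs). In set 2 the 25 leukocyte-like cells were not clean, with *Actg2* at 1061 CPM (850.0 to 1309), *Myl9* at 2000.5 and the epithelial gene *Sfn* at 1805. Of the 23 with at least 900 UMIs, 6 held 90.8% of the member UMIs of that class. In set 3 leukocyte-like cells had *Actg2* at 77.9 CPM (53.6 to 109) and *Tpm2* at 408 (349.8 to 474), and luminal-like cells had 12.1 and 129. In set 2 luminal-like cells had 105 and 298 CPM. An *Actg2* UMI was found in 16.8% and 4.35% of fibroblast-like cells of sets 2 and 3 (medians of 1278 and 1329.5 UMIs), in 32% and 2.79% of leukocyte-like cells (2027 and 2003) and in 78 of 422 and 3.81% of luminal-like cells (7160.5 and 6804), above the fibroblast-like share in set 2 and below it in set 3. The fibroblast-like rates of *Actg2* lay below the leukocyte-like ones in sets 2 and 3 and above the luminal-like ones, at 267 and 47.7 CPM, and in set 1 they lay above both. Thinned to 900 UMIs per cell, an *Actg2* UMI was found in 12.4% of fibroblast-like, 34.8% of leukocyte-like and 6.44% of luminal-like cells of set 2, and in 2.91%, 1.76% and 0.966% of those of set 3. In set 2, cells with fewer than 5 members held 1282 CPM of the members in the leukocyte-like class and 3157 in the fibroblast-like class. Whether the *Actg2* UMIs of fibroblast-like cells were their own was not tested.

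In log2 ratios of fibroblast-like over leukocyte-like cells, *Cald1* (1.91, 1.56 to 2.28), *Des* (1.57, 1.01 to 2.19), *Flnc* (2.82, 1.88 to 3.95), *Fhl1* (1.91, 0.52 to 3.80), *Tpm2* (0.52, 0.29 to 0.75) and *Myl9* (0.42, 0.14 to 0.72) stood above 0 in set 3 and *Actg2* below it (-0.71, -1.25 to -0.13). *Lmod1*, *Synpo2* and *Hspb6* had bounds on both sides of 0. In set 2, with its 25 leukocyte-like cells, the order was another, with *Cald1* (-0.41, -0.71 to -0.10) and *Des* (-0.61, -0.95 to -0.24) below 0, as were *Actg2*, *Tpm2*, *Myl9* and *Fhl1*, and *Flnc* on both sides of it (0.23, -0.49 to 1.04). In set 1 fibroblast-like cells were far higher in 7 of the 10 members, with ratios of 4.36, 3.13 to 5.99 for *Tpm2*, 6.93, 4.45 to 12.23 for *Myl9*, 7.14, 4.66 to 12.44 for *Des* and 7.50, 5.02 to 12.81 for *Cald1*. *Actg2* was at least 10.8-fold higher there and *Fhl1* at least 9.10-fold, against a floor of 3 UMIs in the leukocyte-like cells, and *Flnc* had 462 UMIs against 0. The other members of set 1 were not shown to be higher, with 33 against 4 UMIs of *Synpo2* (ratio 0.10, -1.39 to 2.06), 14 against 1 of *Hspb6* and 2 against 0 of *Lmod1*. No share over all genes was counted for fibroblast-like over leukocyte-like cells.

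Outside these classes *Cald1* was broad in set 1, at 548 CPM (489 to 612) in glia-like and 437 (398 to 479) in endothelium-like cells, near its 481 (461 to 502) in muscle-like cells. *Myl9* stood at 293 CPM in glia-like cells of set 1, and *Des*, *Lmod1*, *Synpo2* and *Hspb6* had 0 UMIs in its 37 endothelium-like cells, which allows up to 2.85 CPM. An unnamed cluster led by mitotic genes such as *Cenpf* held 1390, 13672 and 7779 CPM of the 10 members, with *Tpm2* at 312, 4311 and 3212 and *Actg2* at 99.7, 1487 and 555. Its member rate lay between those of fibroblast-like (4114 and 1981) and muscle-like cells in sets 2 and 3.

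To ask whether the members were found in the same cells, cells were thinned to 900 UMIs, which left out 3, 49 and 114 muscle-like and 1, 202 and 362 fibroblast-like cells. Muscle-like cells had a UMI of a median of 1, 6 and 5 of the 10 members. At least 5 members were found in 4.63% (2.42 to 7.95), 85.7% (83.8 to 87.5) and 66.5% (64.3 to 68.6) of muscle-like cells. In fibroblast-like cells the share was 0 of 170 in set 1, which allows up to 1.76% (3 cells of the total, the limit given for each share of 0), then 7.08% and 1.39%. In pericyte-like cells it was 7.14%, 22.7% and 17.6%, and in leukocyte-like cells of sets 2 and 3 26.1% and 2.35%. In basal-like cells it was 0 of 60 in set 1 (up to 5%), 9.16% and 2.94%. No member was found in 32.8% of muscle-like cells of set 1, in 0 of 1463 of set 2 (up to 0.205%) and in 0.426% of set 3.

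In the basal-like and fibroblast-like classes of sets 2 and 3, cells with at least 5 members had more UMIs and more often a high doublet score than the rest of their class. Basal-like cells of this kind numbered 56 in set 3, with a median of 4760.5 UMIs against 2810, and 67.9% of them had a high doublet score against 10.3% of the others. They held 37.3% of the member UMIs of that class. In fibroblast-like cells of set 3 they numbered 31, with 45.2% against 3.63%. Other classes held few such cells. High doublet scores were found on 4 of 8 luminal-like cells of this kind in set 2 and 4 of 5 in set 3, on 6 of 9 and 4 of 6 glia-like ones, and on 3 of 4 leukocyte-like ones of set 3. They were found on 0 of 6 leukocyte-like and 0 of 5 pericyte-like ones of set 2. The luminal-like ones of set 3 had fewer UMIs than the others, at medians of 4158 and 6914. Within the muscle-like class of set 3 the shares lay the other way, 4.25% of cells with at least 5 members and 10.2% of the others.

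**Figure D4:**
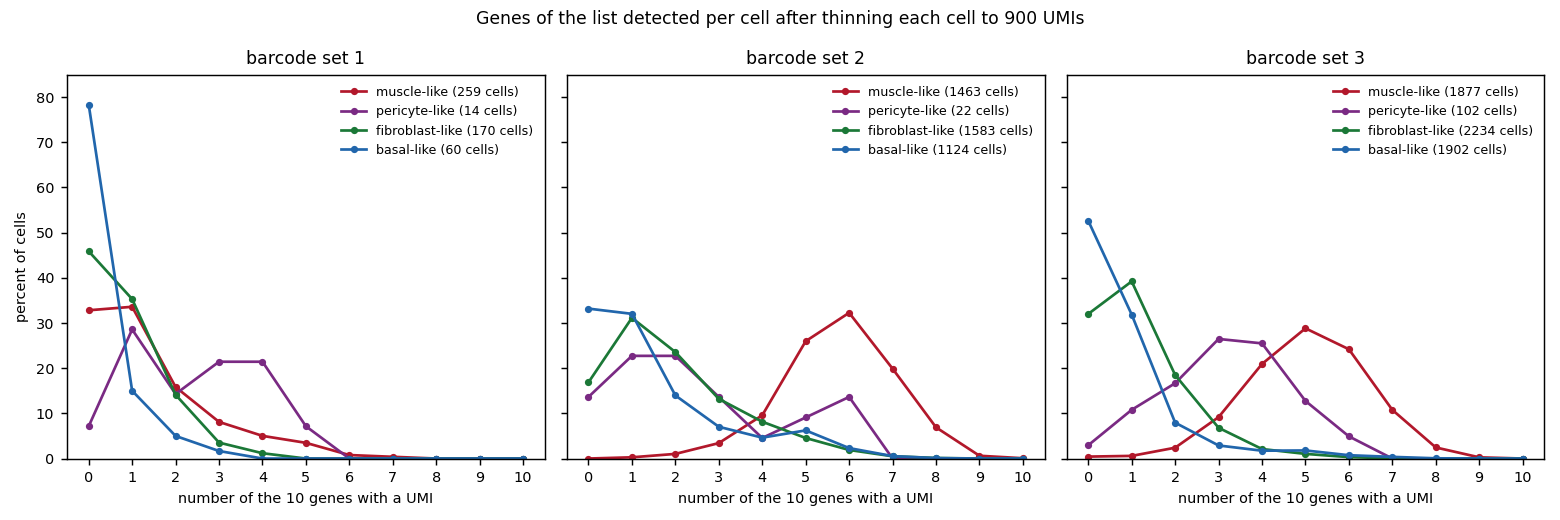
Percent of cells by the number of the 10 members with a UMI after thinning to 900 UMIs, for each class and barcode set. Muscle-like cells peak at 1 member in set 1, at 6 in set 2 and at 5 in set 3.

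The make-up of the member UMIs also varied by class. *Flnc* made up 2.89%, 2.22% and 1.75% of member UMIs in muscle-like cells, 8.93%, 5.55% and 7.56% in fibroblast-like cells and 0.365%, 0.510% and 0.174% in pericyte-like cells. *Cald1* made up 19.3%, 9.47% and 10.5% in muscle-like cells, against 26.9%, 21.2% and 30.9% in fibroblast-like cells. Both thus took a larger share in fibroblast-like than in muscle-like cells in every set. *Des* of set 1 made up 21.0% in fibroblast-like, 7.16% in muscle-like and 1.14% in pericyte-like cells. In leukocyte-like cells of set 3 *Tpm2* made up 40.3%, *Actg2* 7.69% and *Cald1* 16.1%, against 43.8%, 7.57% and 10.5% in muscle-like cells, so that *Cald1* took a larger share there, while the intervals of the other 9 members overlapped.

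A list of 70 other contractile genes put the members in context. It was chosen with earlier results of these data known, 33 of its genes had a row, and 31, 30 and 31 of them had at least 20 UMIs over muscle-like and fibroblast-like cells. At least 2-fold higher rates in muscle-like cells were found for 2, 10 and 15 genes in sets 1, 2 and 3, beside 15.1%, 9.36% and 12.5% of all genes tested. At least 2-fold lower rates were found for 1, 1 and 3, beside 7.60%, 10.1% and 14.9%. The median log2 ratios of the list were 0.08, 0.66 and 0.83, against 0.25, -0.12 and -0.07 over all genes. In set 1 the list thus had a smaller share of higher genes than the table as a whole. Higher in all sets were *Pdlim3* (2.32, 2.80 and 2.37), for a PDZ and LIM protein that binds alpha-actinin, and *Dmpk* (1.46, 2.30 and 2.35), for a muscle protein kinase. Lower in all sets was *Vim* (-1.56, -1.73 and -2.14), for the mesenchymal intermediate filament vimentin.

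By role, 1, 3 and 4 of 9 thin filament and actin-binding genes were higher, and *Tpm3*, another tropomyosin gene, was within 2-fold in all sets (-0.87, -0.86 and -0.68), as were *Cnn3*, *Actn4* and *Pdlim5*. Of 4 genes of myosin and its regulation, 0, 2 and 4 were higher. Of 9 genes of intermediate filaments, the dystrophin complex, chaperones and LIM proteins, 1, 4 and 5 were higher, while the LIM gene *Fhl2* (-0.43, 0.02 and -0.42) and the sarcoglycan genes *Sgcb* and *Sgce* were within 2-fold in all sets. Of 7, 6 and 7 tested genes of calcium, channels and receptors, 0, 1 and 2 were higher. *Atp2a2*, for the calcium pump of the reticulum, was within 2-fold in all sets (-0.16, 0.57 and 0.83), as were *Itpr1*, *Cacna2d1*, *Avpr1a* and *Ednra*. Of 2 transcription regulators, *Mef2d* was within 2-fold in all sets. Named after their values were seen, *Tpm4* (-1.25) and *Tshz3* (-1.57) were the other genes lower in set 3.

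**Figure D5:**
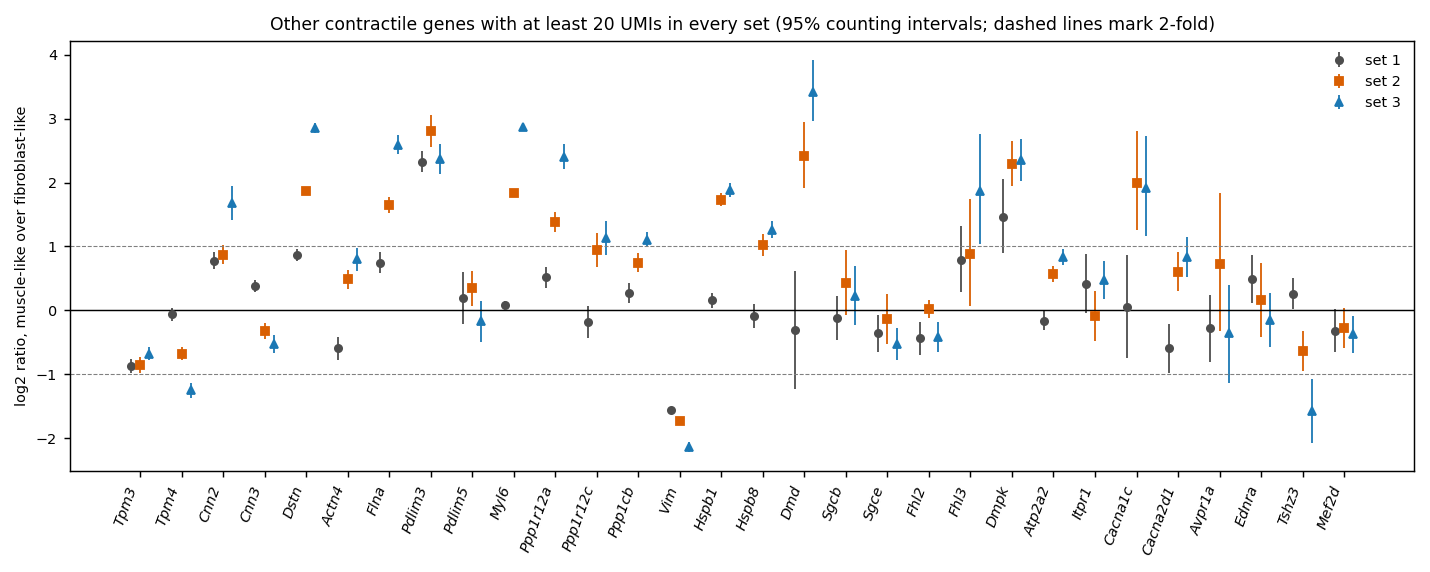
Log2 ratios of the rate in muscle-like over fibroblast-like cells for 30 other contractile genes, with 1 symbol per barcode set and 95% counting intervals. *Pdlim3* and *Dmpk* lie above 1 and *Vim* below -1 in all 3 sets.

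Other genes with at least 200 UMIs were ranked by how alike their pattern over classes was to that of the members. Markers used to name the classes were left out. The measure was Pearson's r with the mean standardized member profile over 24 class and set combinations of at least 20 cells. Pericyte-like cells of set 1 (14 cells) were not among these combinations. The points share libraries and depth, and r is a description. The highest of the genes ranked were *Dmpk* (0.94), *Flna* (0.93), *Fgf7* (0.91), *Ppp1r12a* (0.89), *Hacd1* (0.89), *Nptx2* (0.88), *Ccdc107* (0.87), *Atp2a2* (0.86), *Tnnt2* (0.84) and *Lmcd1* (0.80). *Flna*, for the widely expressed filamin, stood at 204, 760.1 and 691 CPM in muscle-like cells and at 122, 243 and 114 in fibroblast-like cells. *Tnnt2*, for cardiac troponin T, stood at 117, 501 and 592 against 3.80, 30.2 and 10.4. Each member's own r with the mean of the other members ran from 0.80 (*Hspb6*) to 0.97 (*Actg2*).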

How the data were processed

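Cells of 3 libraries were sequenced with the 10x 3′ method, which counts UMIs (the labels name version 3 chemistry and the methods version 2). Per the labels, the authors used Cell Ranger 3.1.0 and mm10, and filtered cells. The authors deposited natural log values, each the ln of 1 added to UMIs scaled to 10000 per cell, for 9784 rows and 14573 cells. The rows analysed here held 52.7%, 50.4% and 49.4% of the UMIs of sets 1, 2 and 3, and 3 rows were left out (1 incomplete, 2 sharing a date-like name). Whole UMIs were recovered for 100% of 11120281 values above 0 (tolerance 0.05 UMI). As designed for 1 library per group, no count test was run. Totals were 20511786, 15929745 and 27444044 UMIs.

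Cells with at least 200 genes were integrated by set and clustered in Seurat 5.3.0 (R 4.3.3; 2000 features, 20 dimensions, resolution 0.5, cell cycle regressed). A cluster was named where it carried at least 3 markers of a list (in at least 10% of cells, at 2 times the median cluster), took its greatest share of that list, and had 1 naming marker among its 10 leading genes. This rule was set after clustering. Doublet scores (Scrublet in scanpy 1.11.5) passed the automatic threshold in 3, 0 and 0 cells, so the caller did not work as a filter. No cell was left out for them, and the 8, 322 and 581 highest scores of the sets are called high. Rates per 1000000 UMIs carry exact Poisson intervals, shares carry Clopper-Pearson intervals, and intervals of ratios come from the exact binomial split of their UMIs (scipy 1.17.1), a count of 0 was set to 3 UMIs, and a share of 0 is given with the limit of 3 cells. A gene was counted at a 2-fold difference with at least 20 UMIs over both classes. Only the ratios and their intervals were tested on simulated data, with Poisson counts for muscle-like and fibroblast-like cells. The simulation held no variation between cells, so it cannot show how the intervals do under such variation. Droplets hold UMIs, but intervals leave out variation between cells and animals.

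The members, gene lists and comparisons were chosen with earlier results of these data known. The genes named are all 10 members, the context genes past 2-fold in all sets or in none, and the 10 genes most like the members in profile (at least 200 UMIs, naming markers left out). Alternatives changed the resolution, integration, gene minimum, doublets, class rule, thinning, fold, UMI minimum and averaging.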

Additional observations from a re-analysis of the deposited data

Results flagged for a closer look

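Several members lay on opposite sides of 0 in different barcode sets, and each set is 1 library, so the difference between sets was not tested. In muscle-like over fibroblast-like cells, *Des* had log2 ratios of -0.72, 2.84 and 3.58 in sets 1, 2 and 3, *Fhl1* of -0.29, 2.89 and 3.15, and *Flnc* of -0.80, 1.52 and 1.65. In muscle-like over pericyte-like cells, *Actg2* had ratios of -2.26, 2.78 and 2.69, *Tpm2* of -1.39, 2.16 and 1.61, *Myl9* of -1.47, 1.85 and 0.59, *Cald1* of -1.59, 0.61 and 0.29, and *Fhl1* of -1.96, 1.48 and 1.53. The opposite signs were not kept by every way of drawing the classes. With cells classed one by one, set 1 gave 1.80 for *Actg2*, 1.40 for *Tpm2*, 1.07 for *Myl9* and 0.42 for *Cald1* over pericyte-like cells, and at a clustering resolution of 1.0 it gave 1.75 for *Des* and 0.64 for *Flnc* over fibroblast-like cells. In set 1 the pericyte-like values rest on 14 cells, and 183 of the 262 muscle-like cells fell in the finer cluster with the lowest *Actg2*, *Tpm2*, *Myl9* and *Des*.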

How the results depend on the processing

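The counts of sets 2 and 3 against fibroblast-like and basal-like cells stayed within 1.5 times their values under every alternative that gave them. Those of set 1, with few cells, did not. Of the single gene ratios under alternatives, 439 stayed within the counting interval, 384 moved beyond it without a counted change of sign and 15 turned their sign.

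At resolution 1.0, where only finer cluster 1 was named muscle-like, 1 of 10 members was higher than in fibroblast-like cells in set 1, with *Des* at 1.75, *Flnc* at 0.64, *Synpo2* at -0.48 and *Hspb6* at -1.01 (log2, the last pair with bounds on both sides of 0), and the muscle-like share was 5.35%, 11.6% and 14.3%. Without integration, when set 1 had 6 muscle-like, 3 fibroblast-like, 1 pericyte-like and 1 basal-like cells, 3 of 3 tested members were higher than in fibroblast-like cells, 4 of 4 differed from pericyte-like cells and 0 of 3 were higher than in basal-like cells, *Actg2*, *Tpm2* and *Myl9* over pericyte-like cells were at 1.96, 1.26 and 1.38, and the shares were 0.783%, 9.94% and 22.5%. With cells classed one by one, 6 members of set 1 and 10 of set 3 differed from pericyte-like cells, *Actg2*, *Tpm2*, *Myl9* and *Cald1* of set 1 were at 1.80, 1.40, 1.07 and 0.42, and the shares were 10.1%, 16.0% and 15.1%. Thinned to 900 UMIs, 4 of 5 tested members of set 1 differed from pericyte-like and 5 of 5 were higher than in basal-like cells. With at least 1000 genes per cell the shares of sets 2 and 3 were 7.94% and 1.73%, and *Cald1* over pericyte-like cells of set 2 was at -0.16. With the mean of cell rates *Fhl1* over fibroblast-like cells of set 1 was at 0.14. Chosen after seeing the data, leaving out finer cluster 6 left 6 members of set 1 different from pericyte-like cells and put *Des* and *Fhl1* over fibroblast-like cells at 0.62 and 0.09 (the latter with bounds on both sides of 0). Some alternatives also left fewer cells or fewer members tested, and the cause of the changes was not tested. Shares over all genes were not counted under the alternatives.

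No paired analysis was possible because there was 1 library per group, with barcode endings not tied to groups. The pericyte-like values rest on 14 and 30 cells in sets 1 and 2, with 1 UMI of *Synpo2* in set 2.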
